A study of Mus musculus with 17 samples.

Results

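The experiment on ADM compared mouse primary neurons labelled ADM treatment with neurons labelled ADM control, and it holds 4 of the 17 libraries of the series. The members were all columns of the count table of this experiment, which are 2 control libraries and 2 ADM libraries. All 4 came from the brain of C57BL/6 mice, and the labels give no genotype change, age, dose or duration. The labels do not say what ADM stands for, whether each library had its own culture, or what a shared replicate number means. Every p-value therefore rests on the spread among these samples alone, which may be technical. Libraries are called control 1, control 2, ADM 1 and ADM 2 after their replicate numbers.

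Cells make cholesterol from acetyl-CoA through a chain of enzymes whose genes are switched on by the transcription factor SREBP2 when sterols are scarce and fall back when sterols are plentiful. The same factor also drives sterol uptake, so synthesis and uptake are usually set together, while the LXR receptors raise export through transporters such as ABCA1. Cytokines of the interleukin-6 family, among them LIF and oncostatin M, signal through a shared receptor chain to STAT3, which induces its own inhibitor SOCS3. In cultures of brain cells these pathways can act in neurons and in the glia and vessel cells that remain among them.

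The libraries held 14.62 M to 19.14 M counts, and 16191 of 31762 listed genes passed the filter on low counts. The labelled cell type was checked against marker lists, using CPM (counts scaled to a common library size). All 12 neuronal markers were measured, and their summed level was 7783 and 8516 CPM in the controls and 6423 and 7102 CPM with ADM. Markers of other cells were present and differed between equally treated libraries. The astrocyte list summed to 1046 and 2421 CPM in control 1 and control 2, and to 1525 and 2418 CPM in ADM 1 and ADM 2. The microglia list summed to 21.4, 74.4, 26.8 and 62.2 CPM in the same order. The list of vessel and fibroblast markers summed to 27.1, 91.2, 72.8 and 1266 CPM, so ADM 2 stood far above the rest. A single gene of this list, Acta2, measured 1.38, 49.3, 12.4 and 861 CPM. In bulk RNA of this kind, fewer cells of a type and less RNA per cell cannot be told apart.

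**Figure D1:**
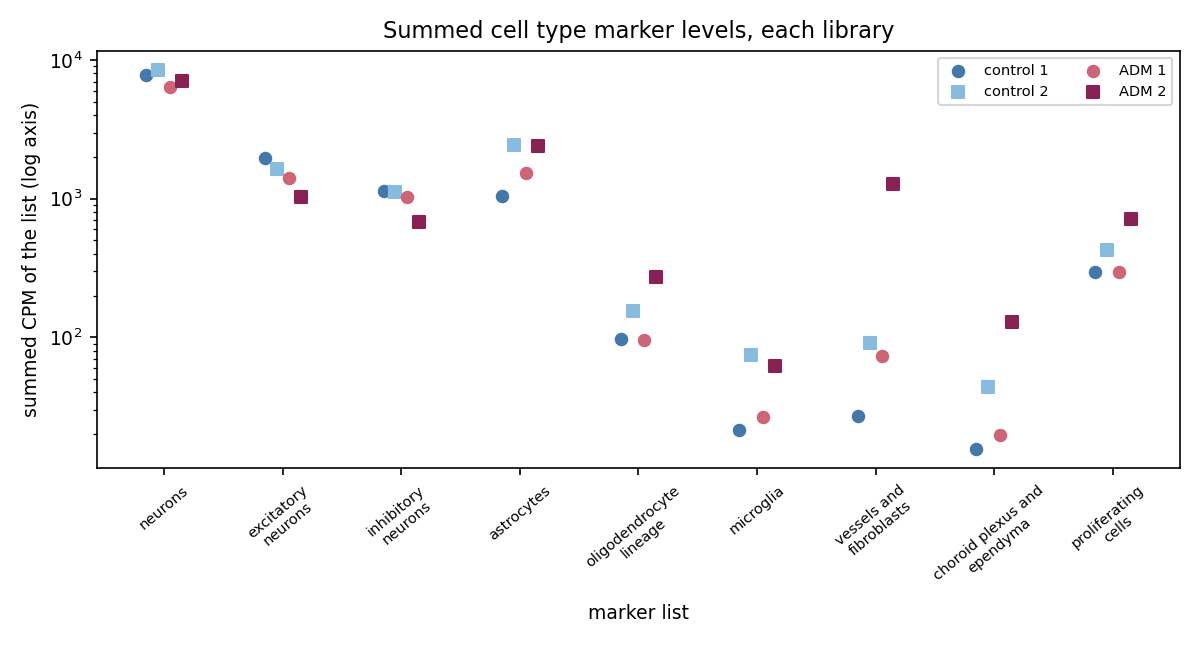
Summed CPM of each marker list (vertical log axis) in each of the 4 libraries, by list along the horizontal axis; circles are replicate 1 and squares replicate 2. Neuronal markers lie between 6423 and 8516 CPM, while the vessel and fibroblast list reaches 1266 CPM in ADM 2 against 27.1 to 91.2 CPM in the other libraries. The gene Acta2 alone holds 861 CPM of that list in ADM 2.

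Libraries of 1 group lay far apart. The common biological coefficient of variation (the fitted spread between equally treated libraries beyond counting noise) was 0.287 here, against 0.082 and 0.0611 in the other neuron tables of the series. Equally numbered libraries shared part of that spread. The difference of replicate 2 from replicate 1 had the same sign in controls and ADM for 70.4% of the 16191 genes. With the replicate number as a block the coefficient was 0.161. Along the first principal component, with 61% of the variance, control 1 stood at −58.6, control 2 at −13.3, ADM 1 at −1.7 and ADM 2 at 73.6. A ribosomal RNA gene, CT010467.1, measured 1099, 453, 6653 and 3543 CPM in control 1, control 2, ADM 1 and ADM 2, so it was higher in both ADM libraries; its part in the other results was not tested.

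Without a block, no gene passed an adjusted p of 0.05 in edgeR's quasi-likelihood test with Benjamini-Hochberg adjustment, and the smallest adjusted p was 0.215. At an unadjusted p under 0.05 there were 1426 genes (8.81%), 979 higher (6.05% of those tested) and 447 lower (2.76%). Without a block, limma voom called 0 genes and DESeq2 called 333. With the replicate number as a block, 373 genes rose (2.3% of those tested) and 92 fell (0.568%). Of these 465 genes (2.87%), 360 also had an unadjusted p under 0.05 without the block. The ADM and control libraries did not overlap for 328 of the genes that rose and 85 of those that fell. Over all genes tested they did not overlap for 21.0% with ADM higher and 19.5% with ADM lower. The calls came from the same 4 libraries, so these counts and the 360 are not separate support for them. Below, "rose" and "fell" refer to the fit with the block, and fold changes are its log2 values ± 1 SE. The shares of 2.3% and 0.568% are those to set beside the counts of each list. In edgeR's test none of the 465 was called without the block, while DESeq2 without a block called 236 of them (50.8%) and edgeR with no filter 114 (24.5%). The fit with the block has 1 residual degree of freedom a gene, so its spread leans on the other genes. That spread is how far the ratios of ADM to control within the replicate numbers differ. It is not the spread between libraries of a group.

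**Figure D2:**
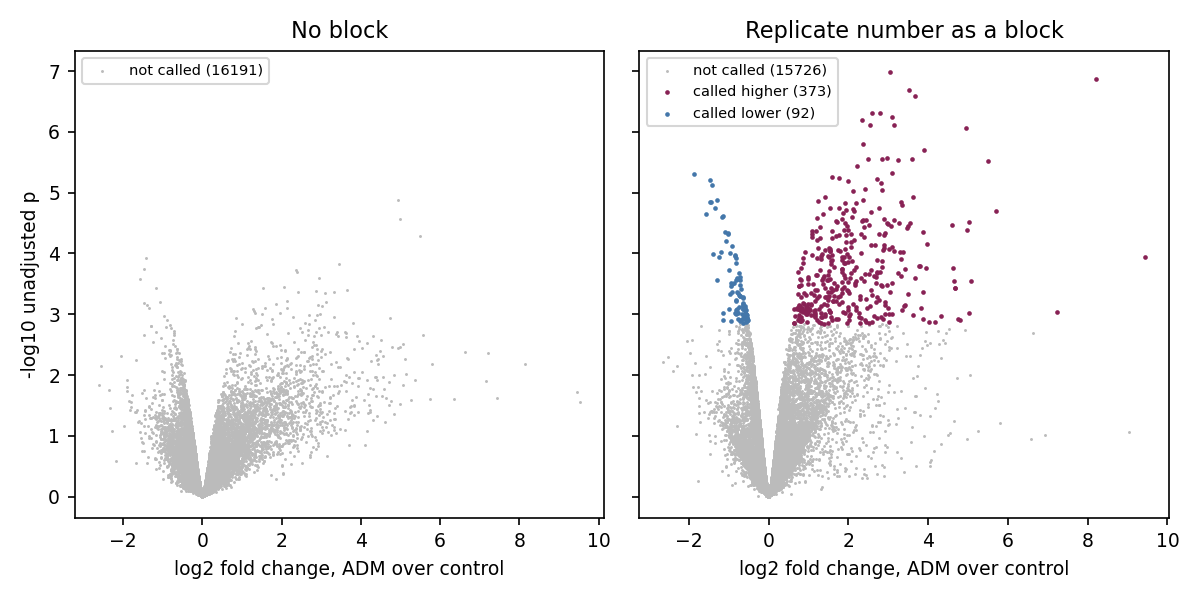
Volcano plots of ADM over control without a block (left) and with the replicate number as a block (right), with the log2 fold change on the horizontal axis and −log10 of the unadjusted p on the vertical axis; each point is 1 of 16191 genes. Called genes are coloured, 0 on the left and 373 higher and 92 lower on the right.

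The genes of cholesterol synthesis were lower with ADM along nearly the whole pathway. Of 20 measured enzymes, 17 fell and 0 rose, where 0.568% of all genes fell. The median log2 fold change was −1.03, against 0.01 over all genes tested. The summed level of the enzymes was 5303 and 4855 CPM in the controls and 2500 and 2384 CPM with ADM. Without the block, 18 of the 20 had an unadjusted p under 0.05 and a lower level, against 2.76% of all genes. For 19 of the 20 both ADM libraries lay below both controls, which held for 19.5% of all genes. ADM was lower than the control of the same number in both cases for 19 enzymes, against 33.2% of all genes.

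Promoter sequences of 4 of these enzymes are shown so that the letters before the start of genes that fell can be read; the data here do not measure the promoters. They come from RefSeq (GRCm38.p6), cover the 250 bases before the annotated start, and read 5′ to 3′ on the strand of the gene. Capitals mark the motif CCAAT on either strand and, in Hmgcs1, also a match to TCACNCCAC, a sterol element motif. Positions are chr13:119690101-119690350 (plus strand) for Hmgcs1, chr8:122443423-122443672 (minus) for Mvd, chr13:8885356-8885605 (plus) for Idi1 and chrX:72918271-72918520 (plus) for Nsdhl.
Hmgcs1: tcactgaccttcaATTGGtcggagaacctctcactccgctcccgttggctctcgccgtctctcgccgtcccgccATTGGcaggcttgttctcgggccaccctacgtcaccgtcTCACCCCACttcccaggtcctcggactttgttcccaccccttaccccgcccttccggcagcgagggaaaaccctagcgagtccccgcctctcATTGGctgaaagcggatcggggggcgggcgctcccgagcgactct
Mvd: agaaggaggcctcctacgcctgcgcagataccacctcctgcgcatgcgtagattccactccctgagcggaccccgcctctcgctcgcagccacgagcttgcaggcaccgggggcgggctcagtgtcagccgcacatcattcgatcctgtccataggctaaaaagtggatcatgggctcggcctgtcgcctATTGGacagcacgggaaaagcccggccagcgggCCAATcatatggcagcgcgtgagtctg
Idi1: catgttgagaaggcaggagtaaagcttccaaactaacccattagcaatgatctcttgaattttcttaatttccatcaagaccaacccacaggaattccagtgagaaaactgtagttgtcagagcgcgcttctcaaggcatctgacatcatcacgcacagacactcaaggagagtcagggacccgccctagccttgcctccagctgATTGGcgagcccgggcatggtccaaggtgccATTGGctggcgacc
Nsdhl: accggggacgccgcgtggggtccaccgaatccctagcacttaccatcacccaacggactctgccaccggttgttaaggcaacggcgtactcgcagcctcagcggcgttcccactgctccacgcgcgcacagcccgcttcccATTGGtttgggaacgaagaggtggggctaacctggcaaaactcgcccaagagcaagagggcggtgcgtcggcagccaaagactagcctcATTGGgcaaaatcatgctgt
Windows of 300 bases, with 50 of them after the start, were held for 15 of the 20 enzymes and for 11338 (70.0%) of all genes tested. CCAAT was found in 13 of the 15 (86.7%) and in 38.5% of all windows. It is not particular to these enzymes. Endoplasmic reticulum stress genes had it in 87.5% of windows and proliferation markers in 93.3%, and 0 genes of these lists were called. Other lists had it less often, such as the presynaptic genes (11.1%). Among all genes called lower the share was 52.3%. TCACNCCAC was found in 1 of the 15 (6.7%) and in 1.1% of all. A match is a description of the letters and not evidence of binding.

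At the entry of the pathway, Hmgcs1, which makes HMG-CoA, measured 2061 and 1991 CPM in the controls and 848 and 964 CPM with ADM. Its level was thus lower in both ADM libraries, with a log2 fold change of −1.16 ± 0.11 (adjusted p = 0.0070). Of the enzymes that turn mevalonate into isoprene units, Mvd, the mevalonate diphosphate decarboxylase, measured 85.4 and 84.8 against 29.3 and 31.9 CPM. The controls of Mvd nearly coincided, and the log2 fold change was −1.48 ± 0.12 (adjusted p = 0.00569). Idi1, the isomerase that follows it, measured 227 and 191 against 97.6 and 73.1 CPM (−1.30 ± 0.11, adjusted p = 0.00569).

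At the branch to sterols, Sqle, the squalene epoxidase, measured 331 and 308 against 144 and 162 CPM and fell by 1.06 on the log2 scale. Lss, the cyclase that closes the sterol rings, measured 185 and 132 against 65.1 and 49.1 CPM (−1.47 ± 0.11, adjusted p = 0.00379). Both ADM libraries lay below both controls for each of these enzymes. Nsdhl, which removes methyl groups from the ring, measured 102 and 85.9 against 40.3 and 33.6 CPM, and its ratio within each replicate number was almost equal. Dhcr7, which acts at the end of the pathway, had a log2 fold change of −0.74.

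The 3 enzymes that were not called differed among themselves. Fdps, the farnesyl diphosphate synthase, measured 8.96 and 10.02 against 3.61 and 2.35 CPM (−1.69 ± 0.32, adjusted p = 0.0517). Pmvk measured 45.4 and 45.03 against 36.5 and 34.6 CPM, lower in both but by a smaller amount (−0.35). Ebp measured 10.5 and 6.96 against 8.57 and 9.76 CPM, with overlapping groups (0.10 ± 0.28). The ratios within the replicate numbers differed by over 1 on the log2 scale for 0 of the 20 enzymes. Over all genes tested, 4.63% had a ratio larger by over 1 in replicate 1 and 7.07% in replicate 2.

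**Figure D3:**
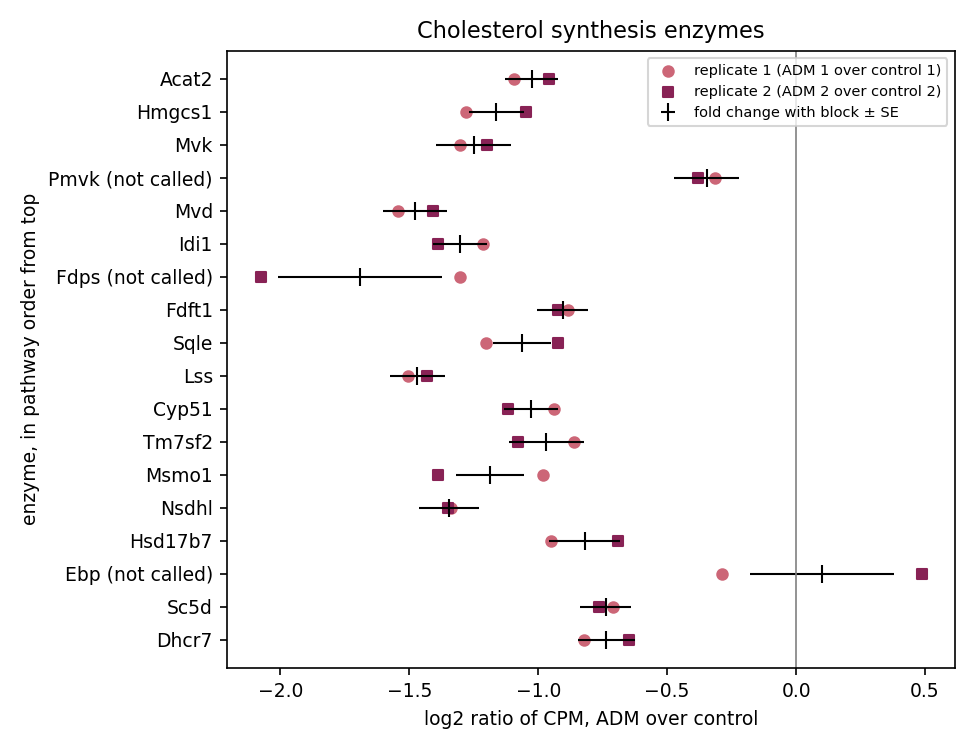
Log2 ratio of CPM (horizontal axis) for 18 of the cholesterol synthesis enzymes in pathway order (vertical axis); circles are ADM 1 over control 1, squares ADM 2 over control 2, and ticks with bars the fold change with the block ± 1 SE. Both symbols lie below 0 for 17 of them, and Ebp alone has symbols on both sides.

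Sterol sensing and uptake genes moved in part. Of 12 measured, 4 fell and 0 rose, where 0.568% of all genes fell, and the list's median was 0.09. Stard4, a sterol carrier, measured 72.1 and 63.7 against 23.4 and 28.6 CPM (−1.39 ± 0.16), so both ADM libraries lay below both controls. Insig1, which holds SREBP in the endoplasmic reticulum, had a log2 fold change of −0.99, and Srebf2, which encodes SREBP2, of −0.74. The sterol transporters Npc1 and Npc2 were not called (0.22 and 0.17), nor was the escort protein Scap (0.18).

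Of 13 genes of LXR targets and cholesterol efflux, 1 rose. Abca1, the transporter that loads cholesterol onto apolipoproteins, measured 66.7 and 198 CPM in the controls and 182 and 646 CPM with ADM. The groups overlapped, since ADM 1 lay below control 2, while each ADM library lay above the control of its own number (1.58 ± 0.11, adjusted p = 0.00379; unpaired unadjusted p = 0.0958). Abcg1, another LXR target, had a log2 fold change of 0.25 and Srebf1 of 0.26, and neither was called. Apoe, the main apolipoprotein of the brain, measured 161, 630, 217 and 455 CPM in control 1, control 2, ADM 1 and ADM 2. The spread between replicates exceeded any difference between the groups (−0.03 ± 0.26, adjusted p = 0.974), and without the block the sign of the difference turned with the library left out. Of 13 ApoE receptors 1 fell. Lrp1 measured 512 and 619 against 586 and 809 CPM, and was not called (0.29).

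Among 16 genes of fatty acid and acetyl-CoA metabolism, 3 fell and 0 rose, where 0.568% of all genes fell. Scd1, which makes monounsaturated fatty acids, measured 183 and 245 against 75.0 and 80.2 CPM (−1.45 ± 0.12, adjusted p = 0.00569). Acly, which supplies cytosolic acetyl-CoA, measured 423 and 433 against 257 and 265 CPM (−0.71 ± 0.10). Fads2, a desaturase, had a log2 fold change of −0.63. Fasn, the fatty acid synthase, measured 738 and 756 against 801 and 555 CPM, so ADM 1 lay above and ADM 2 below the controls (−0.16, not called).

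Among the 10 largest falls, 3 genes belong to neither lipid synthesis nor uptake. Aldoc, an aldolase typical of astrocytes, measured 68.6 and 157 CPM in the controls and 16.7 and 46.8 CPM with ADM and had the largest fall of the 10 (−1.88 ± 0.13, adjusted p = 0.00365). Luzp2 measured 155 and 158 against 59.2 and 57.1 CPM, with close agreement within each group (−1.43 ± 0.11). Hs3st2, a heparan sulfate sulfotransferase, measured 26.7 and 28.4 against 12.3 and 10.3 CPM (−1.30 ± 0.18).

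Of the 10 largest rises, 3 were similar in size in both ADM libraries. Timp1, an inhibitor of matrix proteases on chromosome X (20870166 to 20874735, plus strand, mm10), measured 0.842 and 0.738 CPM in the controls and 24.5 and 24.7 CPM with ADM. Its libraries agreed within each group, the log2 fold change was 4.95 ± 0.26 (adjusted p = 0.00127), and its unadjusted p of 1.3e-05 without the block was the smallest of all genes tested. Cyp1b1, a cytochrome P450 monooxygenase, measured 2.77 and 4.11 against 126 and 92.2 CPM (4.96 ± 0.29). Bdkrb2, a bradykinin receptor, measured 0.301 and 0.316 against 11.9 and 16.8 CPM (5.50 ± 0.35).

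Other rises of these 10 were unequal between the ADM libraries. Lox, which cross-links collagen, measured 0.722 and 3.69 against 7.50 and 135.7 CPM (4.74 ± 0.48, adjusted p = 0.0456). With a filter of 5 CPM on average the adjusted p of Lox was 0.0501. Mmp3, a matrix protease, had 0 counts in both controls, 157 counts in ADM 1 and 10 in ADM 2. Against a floor of 3 counts over the controls it was at least 62.8-fold higher, and with DESeq2 its adjusted p was 0.412. Hmga2, Nupr1, Cdsn and Tm4sf1 were also among the 10, with log2 fold changes of 5.71, 5.03, 4.66 and 4.62.

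Osmr, Stat3 and Socs3 of the inflammation list and Lif and Lifr of the growth factor list act in 1 pathway, described above, and were set side by side after their values were seen. Osmr, the oncostatin M receptor on chromosome 15 (6813577 to 6874969, minus strand, mm10), measured 3.49 and 5.27 CPM in the controls and 29.99 and 37.8 CPM with ADM (2.96 ± 0.19, adjusted p = 0.00258). Lif, the cytokine, measured 1.08 and 1.37 against 11.5 and 19.4 CPM (3.62 ± 0.29, adjusted p = 0.00567). Lifr, its receptor, measured 42.1 and 41.7 against 67.5 and 69.9 CPM (0.72 ± 0.12). For Osmr, Lif, Lifr, Stat3 and Socs3 both ADM libraries lay above both controls. Stat3, the transcription factor, measured 43.5 and 66.1 against 201 and 199 CPM (1.90 ± 0.17, adjusted p = 0.0125). Socs3, the inhibitor of this pathway, measured 5.29 and 4.69 against 27.6 and 23.9 CPM (2.36 ± 0.19, adjusted p = 0.00569). Il6st, the shared receptor chain, measured 48.4 and 83.9 against 80.8 and 142.7 CPM (0.75 ± 0.11, adjusted p = 0.0225). Its groups overlapped, and its difference between the replicate numbers was slightly larger (0.81).

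**Figure D4:**
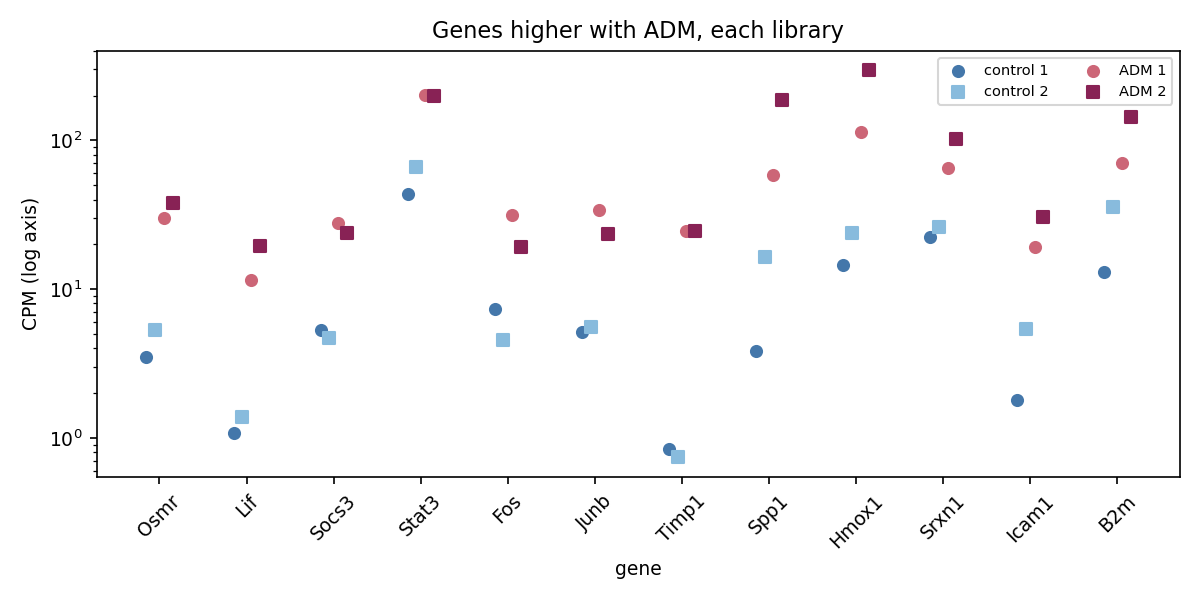
CPM on a vertical log axis in each of the 4 libraries for 12 genes that rose (horizontal axis); blue symbols are controls, red and purple symbols ADM, circles replicate 1 and squares replicate 2. Both ADM libraries lie above both controls for each gene, as for Osmr at 29.99 and 37.8 against 3.49 and 5.27 CPM.

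Of 17 measured inflammation genes, 5 rose and 0 fell, where 2.3% of all genes rose. The list's median was 2.36. Besides Osmr, Socs3 and Stat3, these were Icam1, a leukocyte adhesion molecule, and Nfkb1, an NF-κB subunit. Icam1 measured 1.81 and 5.38 against 19.2 and 30.5 CPM (2.90 ± 0.28). Without the block 12 of the 17 were higher at an unadjusted p under 0.05, against 6.05% of all genes. The remaining genes differed most in size between the ADM libraries. Lcn2, an iron-binding protein of acute inflammation, measured 0 and 0.369 CPM in the controls, 281 CPM in ADM 1 and 3.80 CPM in ADM 2, and was not called. C3, the central complement component, measured 0.481, 4.75, 118 and 15.4 CPM in control 1, control 2, ADM 1 and ADM 2, and Serpina3n measured 2.05, 10.3, 206 and 50.5 CPM. Both ADM libraries lay above both controls for these 3 genes, but the excess over the control was much larger in replicate 1.

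The same held for interferon-stimulated genes. Of 21 measured, 2 rose and 0 fell, with a median of 2.40, and 16 had both ADM libraries above both controls, against 21.0% of all genes. B2m, the light chain of MHC class I, measured 13.1 and 35.5 against 70.0 and 143.9 CPM (2.21 ± 0.15, adjusted p = 0.00291). Ifit2 measured 8.66 and 13.8 against 20.4 and 28.7 CPM (1.14 ± 0.17). Oasl2 and Cxcl10, a chemokine, were not called. In replicate 1 Oasl2 measured 0.301 CPM in the control and 90.3 CPM with ADM, and Cxcl10 measured 0.962 and 77.8 CPM. In replicate 2 Oasl2 measured 3.32 and 9.64 CPM, and Cxcl10 measured 9.55 and 10.4 CPM. The median ratio of the list was 4.48 in replicate 1 and 0.74 in replicate 2, on the log2 scale. For 18 of the 21 the ratio was larger by over 1 in replicate 1, against 4.63% of all genes. With 1 library in each cell of the design, this difference between the replicate numbers could not be tested. Of 13 microglia markers 0 were called. Their ratio was also larger in replicate 1 for 11, against 8036 of the 16191 genes tested. It was larger by over 1 for 4 (30.8%), against 4.63% of all genes. Some of these markers had few counts. In replicate 1 Cx3cr1 had 12 counts in the control and 4 with ADM, and Trem2 had 13 and 6. ADM was lower than the control of the same number in both cases for 5 of the 13 and higher for 2. The median ratio of the microglia list was 0.31 in replicate 1 and −0.63 in replicate 2, and its part in the interferon-stimulated genes was not tested.

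**Figure D5:**
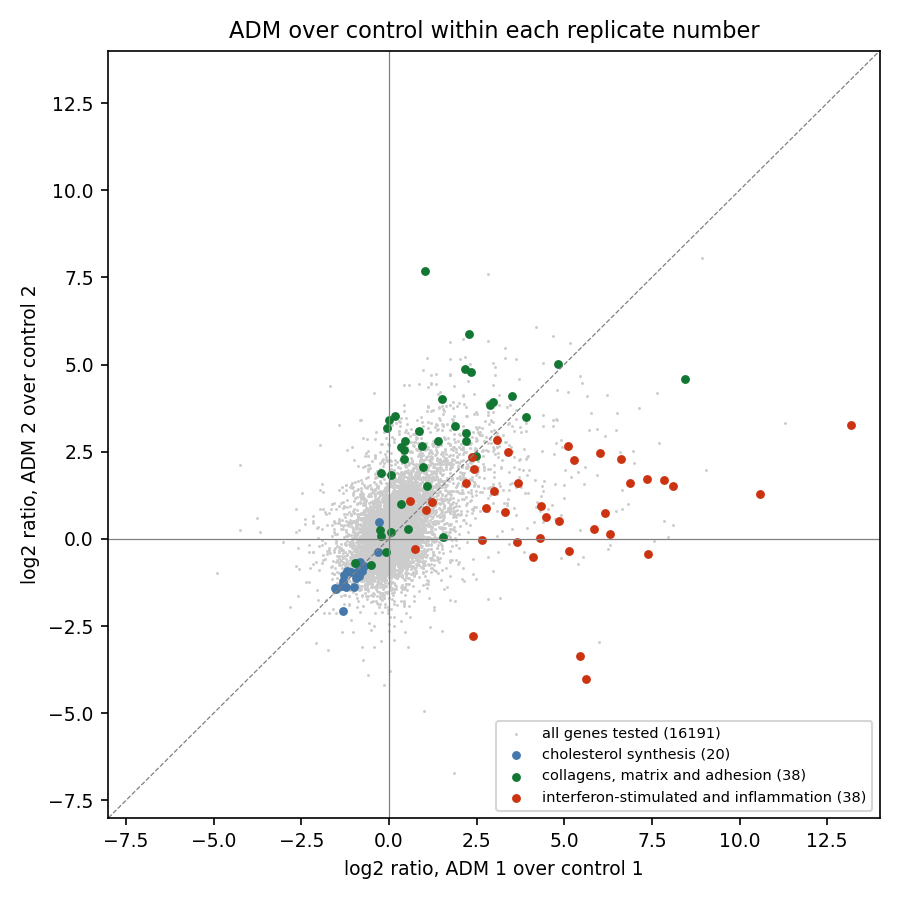
Log2 ratio of ADM 1 over control 1 (horizontal axis) against ADM 2 over control 2 (vertical axis) for 16191 genes in grey, with 3 groups of lists coloured and the dashed line marking equal ratios. Cholesterol enzymes lie near the line with negative ratios, interferon-stimulated and inflammation genes mostly below it, and matrix genes mostly above it.

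Immediate early genes follow within minutes of a stimulus, and many but not all encode transcription factors. Of 21 measured, 5 rose and 0 fell, with a median of 0.92, where 2.3% of all genes rose. Fos measured 7.40 and 4.54 CPM in the controls and 31.4 and 19.2 CPM with ADM (2.08 ± 0.19, adjusted p = 0.0070). Junb measured 5.17 and 5.59 against 34.3 and 23.3 CPM (2.39 ± 0.23). Egr2 and Fosb had log2 fold changes of 2.81 and 2.27, and Btg2, a growth suppressor, of 1.70. Other members were not called, among them Npas4, Nr4a1 and Arc. Npas4 measured 10.1 and 8.39 against 11.2 and 6.75 CPM, and Nr4a1 9.93 and 8.02 against 16.3 and 10.2 CPM. Arc measured 2.29 and 1.69 against 3.15 and 4.40 CPM (0.92, adjusted p = 0.261). Among 22 late activity genes 2 rose, Rgs4, a G protein regulator (0.92), and Gadd45b, a stress-induced gene (2.17). Bdnf measured 4.39 and 3.22 against 9.17 and 10.9 CPM and was not called (1.41, adjusted p = 0.0677).

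Of 22 heat shock and oxidative stress genes, 9 rose and 0 fell, with a median of 1.01, where 2.3% of all genes rose. Nfe2l2, which encodes the transcription factor NRF2, measured 14.4 and 31.0 CPM in the controls and 48.1 and 107 CPM with ADM (1.77 ± 0.13, adjusted p = 0.00379). Hmox1, the heme oxygenase, measured 14.5 and 24.0 against 114 and 297 CPM (3.31 ± 0.19, adjusted p = 0.00569). Both genes were higher in both ADM libraries, and highest in ADM 2. Srxn1, which repairs peroxiredoxins, measured 22.4 and 26.1 against 65.1 and 102 CPM (1.76 ± 0.15). Txnrd1 and Nqo1, further NRF2 targets, had log2 fold changes of 0.90 and 2.93, and Gsta4 of 1.87. Hspb8, a small heat shock gene, rose by 2.35. Cryab, another, rose by 1.93, but its groups overlapped (0.902 and 8.97 against 2.54 and 39.5 CPM) and its difference between the replicate numbers was larger (3.69). The chaperones Hspa8 and Hsp90aa1 were not called (0.04 and −0.21).

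Of 23 integrated stress response genes 3 rose, where 2.3% of all genes rose: Sesn2, Eif4ebp1 and Nupr1. Sesn2, an inhibitor of mTORC1, measured 27.4 and 33.2 against 69.9 and 77.5 CPM (1.29 ± 0.12, adjusted p = 0.00747). The central factor Atf4 measured 154 and 135 CPM in the controls, 252 CPM in ADM 1 and 149.5 CPM in ADM 2, and was not called (0.43). For 22 of the 23 genes the ratio was larger in replicate 1, against 8036 of the 16191 genes tested. Of 19 endoplasmic reticulum stress genes none was called with the block, and 3 were higher at an unadjusted p under 0.05 without it. Hspa5, the main chaperone of that compartment, measured 364 and 315 against 443 and 565 CPM (0.56, adjusted p = 0.142).

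Among 24 lysosome and autophagy genes 6 rose and 0 fell, where 2.3% of all genes rose. Lamp2, a lysosomal membrane protein, measured 55.8 and 87.4 against 112 and 196 CPM (1.09 ± 0.11, adjusted p = 0.00803). Sqstm1, the autophagy receptor p62, measured 242 and 259 against 376 and 474 CPM (0.75 ± 0.11). The cathepsins Ctsd, Ctsl and Ctsz rose by 1.00, 0.73 and 1.42, but their groups overlapped, since control 2 lay above ADM 1. In the same libraries 9 of the 24 also differed between the replicate numbers, against 3.01% of all genes.

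The summed level of the matrix genes was highest in ADM 2. Of 38 measured collagen, matrix and adhesion genes, 10 rose and 2 fell, with a median of 1.78. Over all genes tested, 2.3% rose and 0.568% fell. For 31 ADM was higher than the control of the same number in both cases, against 34.1% of all genes. Their sums were 2585 and 3236 CPM in the controls, 2897 CPM in ADM 1 and 9702 CPM in ADM 2. For 19 of the 38 the ratio was larger by over 1 in replicate 2, against 7.07% of all genes. In replicate 1 this held for 2 of the 38, against 4.63% of all genes. Spp1, osteopontin, measured 3.85 and 16.4 against 58.7 and 185 CPM (3.68 ± 0.16, adjusted p = 0.00104). Thbs2, a thrombospondin, measured 1.02 and 3.27 against 11.9 and 55.9 CPM (3.89 ± 0.23). Both were higher in both ADM libraries. Fn1, fibronectin, measured 169, 111, 169.6 and 1174 CPM in control 1, control 2, ADM 1 and ADM 2, and Sparc, osteonectin, 70.6, 216, 186 and 1526 CPM. Neither was called. The genes that fell were the proteoglycans Vcan (−0.63), with 410.3 and 402 against 286 and 239.9 CPM, and Bcan (−0.82). Bcan measured 43.9 and 107 against 22.6 and 66.2 CPM, so its groups overlapped, and its difference between the replicate numbers was larger (1.42).

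Markers of vessels and fibroblasts were not all highest in ADM 2. Of 11 measured, 3 rose, where 2.3% of all genes rose: Acta2, Flt1 and Lum. Acta2 was highest in ADM 2, while Flt1 and Lum were not. For 6 of the 11 the ratio was larger by over 1 in replicate 2, against 7.07% of all genes. In replicate 1 this held for 0 of the 11, against 4.63% of all genes. The median log2 ratio of the list was 1.47 in replicate 1 and 2.71 in replicate 2. Acta2, smooth muscle actin, measured 1.38, 49.3, 12.4 and 861 CPM in control 1, control 2, ADM 1 and ADM 2, so it followed the replicate number as well as ADM (3.88 ± 0.25). Without ADM 2 its unpaired log2 fold change was −1.05. Flt1, a VEGF receptor, measured 0.722 and 0.422 against 4.69 and 3.50 CPM (2.85 ± 0.41). Lum, a matrix proteoglycan, measured 0.541 and 0.58 against 3.15 and 3.13 CPM, and with DESeq2 its adjusted p was 0.108. Cdh5, an endothelial cadherin, and Tagln, a smooth muscle gene, did not pass the filter on low counts. The part of such cells in the rise of the matrix genes was not tested.

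Of 33 growth factors and receptors 4 rose, where 2.3% of all genes rose. Fgf2 measured 2.47 and 2.43 against 27.6 and 15.1 CPM (3.06 ± 0.29, adjusted p = 0.00739). Ngfr, the p75 neurotrophin receptor, measured 5.41 and 4.01 against 20.8 and 20.4 CPM (2.14 ± 0.23), and the other rises were Lif and Lifr. The tyrosine kinase receptors Ntrk2 and Ntrk3 were not called (−0.20 and −0.16). For 11 of the 33 the ratio was larger by over 1 in replicate 2, against 7.07% of all genes, and for 0 in replicate 1. Of 29 TGF-β, BMP and Wnt genes 3 rose, among them Tgfbi and Id1. Tgfbi measured 0.782 and 0.738 against 4.08 and 5.12 CPM (2.58 ± 0.39). Id1 measured 1.925 and 6.70 against 4.75 and 21.8 CPM (1.53 ± 0.26). Its groups overlapped, and its difference between the replicate numbers was larger (2.015). For 13 of the 29 the ratio was larger by over 1 in replicate 2, against 7.07% of all genes. In replicate 1 this held for 1 of the 29, against 4.63%.

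The lists of neuronal genes had medians below 0, and most held 1 or 2 genes that fell, where 0.568% of all genes fell. Of 25 genes of the presynaptic release machinery 0 were called with the block, 6 were lower at an unadjusted p under 0.05 without it, and the median was −0.25. Both ADM libraries lay below both controls for 16 of the 25, against 19.5% of all genes. Pclo, a scaffold of the release site, measured 355 and 372 against 257 and 286 CPM and was not called (−0.42, adjusted p = 0.0827). Of 22 postsynaptic genes 1 fell: Shank1, a scaffold, measured 334 and 346 against 229 and 209 CPM (−0.63 ± 0.10, adjusted p = 0.0365). With scaling by library totals its adjusted p was 0.0563. Of 24 axon and cytoskeleton genes 1 fell, Stmn1 (−0.52), and both ADM libraries lay below both controls for 15. With scaling by library totals Stmn1 had an adjusted p of 0.0663. Nefl and Nefm, neurofilament genes, were at 63.3 and 57.6 against 82.9 and 139 CPM and at 85.3 and 81.6 against 109 and 234 CPM, and neither was called.

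Of 33 ion channel genes 2 fell and 1 rose. Cacna1i, a T-type calcium channel, measured 48.7 and 86.2 against 27.6 and 40.9 CPM (−0.95 ± 0.13, adjusted p = 0.0216). Cacna1h, of the same family, had a log2 fold change of −0.64 and was not called with scaling by library totals (adjusted p = 0.0679). The gene that rose, Kcnj10, is the potassium channel of astrocytes and measured 12.5, 60.5, 19.5 and 109.9 CPM in control 1, control 2, ADM 1 and ADM 2. Its groups overlapped. Of 35 glutamate and GABA receptor subunits 1 fell, Gabra2 (−0.58), whose groups also overlapped and whose adjusted p was 0.0666 with scaling by library totals. Grin1 was at 58.3 and 61.3 against 50.6 and 61.0 CPM (−0.11).

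Among neuronal markers, 1 of 12 fell: Elavl3, an RNA-binding protein, measured 734 and 620 against 517 and 407 CPM (−0.56 ± 0.10, adjusted p = 0.0414; 0.0632 with scaling by library totals). Of 12 excitatory markers 1 fell, their median was −0.61, and 9 were lower than the control of the same number in both cases, against 33.2% of all genes. Of 13 inhibitory markers 1 fell, Reln, at 326 and 291 against 213 and 145 CPM (−0.81 ± 0.13). Of 22 neuropeptide genes 1 rose. Pomc, the precursor of ACTH and endorphin, had 0 counts in both controls and 11 and 24 counts with ADM, at least 13.2-fold higher against a floor of 3 counts over the controls. Adm, the gene for adrenomedullin, measured 0.361 and 0.475 CPM in the controls and 0.937 and 4.64 CPM with ADM, and was not called (2.52 ± 0.58, adjusted p = 0.0846).

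Among 15 astrocyte markers 3 rose and 1 fell, and 6 were higher in replicate 2 whatever the group, against 2.38% of all genes. Clu, clusterin, measured 55.6 and 128 against 134 and 292 CPM (1.23 ± 0.10, adjusted p = 0.00569), and Sox9, a glial factor, measured 29.96 and 37.97 against 49.7 and 65.6 CPM (0.76 ± 0.12). Gja1, connexin 43, rose by 0.81, with overlapping groups. Gfap, the intermediate filament of astrocytes, measured 12.2, 121, 114 and 142 CPM in control 1, control 2, ADM 1 and ADM 2, and was not called. Of 8 oligodendrocyte lineage markers 1 rose, Cspg4 (NG2), at 5.84 and 6.80 against 14.99 and 25.1 CPM (1.63 ± 0.23). None of 17 proliferation markers, 6 choroid plexus and ependyma markers or the 1 measured erythrocyte marker was called with the block or had an unadjusted p under 0.05 without it. For 12 of the 17 proliferation markers ADM was higher than the control of the same number in both cases, against 34.1% of all genes. Their sums were 296, 427, 296 and 713 CPM in control 1, control 2, ADM 1 and ADM 2. The choroid plexus and ependyma list summed to 15.5, 44.1, 19.9 and 128.9 CPM in the same order.

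Genes of energy supply and protein synthesis showed few or no calls. Of 28 glycolysis and hypoxia genes Aldoc fell and Slc16a1 rose. Slc16a1, a lactate transporter, measured 24.1 and 27.3 against 67.3 and 48.7 CPM (1.16 ± 0.19, adjusted p = 0.0441; 0.0588 with a filter of 5 CPM on average). Of 28 ribosomal protein genes, 25 respiratory chain genes, 11 mitochondrial transcripts and 27 histone acetyltransferases and deacetylases, none was called with the block. At an unadjusted p under 0.05 without it, 1 ribosomal gene was higher and 1 of the histone enzymes lower. The medians of these lists were 0.28, 0.01, −0.08 and −0.03. The ribosomal genes were shifted by a small amount, with log2 fold changes from 0.108 to 0.512. For 26 of the 28 ADM was higher than the control of the same number in both cases, against 34.1% of all genes. Both ADM libraries lay above both controls for 14 of the 28, against 21.0% of all genes.

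The replicate number itself gave about as many calls as ADM. Adjusted for group, 385 genes were higher (2.38%) and 102 lower (0.63%) in replicate 2 than in replicate 1, or 3.01% together. The largest differences included Acta2 (5.84 ± 0.26, adjusted p = 0.00804). Lmod1, a smooth muscle leiomodin, measured 0.241 and 2.00 CPM in control 1 and control 2 and 0.402 and 16.3 CPM in ADM 1 and ADM 2. Cryab, a small heat shock gene, differed by 3.69 ± 0.27 and Emp1, an epithelial membrane protein, by 3.04 ± 0.21. Higher in replicate 1 were Slc16a3, a lactate exporter (−2.60), Trim66 (−2.01) and Ebf1 (−1.90). Of the genes called for ADM, 149 (32.0%) were also called for the replicate number, which is 30.6% of the latter, and 135 of them were higher for both. Among the cholesterol enzymes 0 of 20 were called for the replicate number.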

How the data were processed

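RNA-seq of 4 libraries was analysed. The deposited values are raw read counts per gene (whole numbers, none normalized), per the labels from 2 μg of total RNA and the NEBNext Ultra kit. The submitters' processing notes name HISAT2 2.1.0, Bowtie2 2.2.3, HTSeq 0.6.0 and mm10. No source used here states the strand setting or any poly(A) selection, so antisense partners and close paralogs are uncertain. Of 31762 identifiers, 31651 were in the reference names, and 25 symbols stored as dates were restored. Every count column was mapped to a library.

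Counts were tested in edgeR 4.0.16 (R 4.3.3): filterByExpr, TMM scaling, robust quasi-likelihood F test, Benjamini-Hochberg adjustment over 16191 genes, threshold 0.05. It was fitted by group and with the replicate number as an additive block, and the replicate coefficient was tested too. The SE is the fold change over the root of F. Ratios within a replicate number add 0.5 counts. The scripts were tested on simulated data whose spread was smaller than that of these libraries, so that test says nothing of the power here. The pairing check gave r = 0.484 across genes between the replicate differences of controls and ADM; the labels give no source for a pairing. DESeq2 1.42.0 and limma 3.58.1 served as alternatives, as did other scalings and filters and leaving out libraries.

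Genes were named by rule: the 10 largest rises and falls among called genes, leaving out predicted names, groups that overlap and means under 5 CPM; up to 4 called members of a list (or 2 with the lowest p), the 8 largest replicate differences each way, Apoe and Adm. Other members were named after their values were seen. The members and lists were chosen with earlier results of these data known. Lists are described by counts and medians, without a test. Some genes are counted in their lists but not reported here by name.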

Additional observations from a re-analysis of the deposited data

How the results depend on the processing

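In edgeR's test 0 genes were called without the replicate block, and 465 with it. The count without a block was also 0 with DESeq2 size factors, library totals, limma voom, a filter of 5 CPM or no robust estimation, 333 with DESeq2's own test and 128 with no filter. It ran from 0 to 641 when 1 library was left out: 0 without either control, 641 without ADM 1 and 47 without ADM 2, where the lone library was assumed to vary like the other group. With the block the count was 731 with DESeq2, 800 with limma voom, 2371 with no filter, and 328 to 541 otherwise. For the replicate number it was 487, 355 with library totals, 743 with DESeq2 and 2548 with no filter. The block could not be fitted with a library left out. In edgeR's test 27 of 37 lists had a called member with the block and 0 without; without a block 22 had one with DESeq2 and 16 with no filter.

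When 1 library was left out, the unpaired log2 fold change changed sign for 12 of the genes named by rule. Genes named only for a replicate difference, and genes named after their values were seen, were left out of this count. It ran from −1.05 to 8.29 for Acta2, −0.92 to 2.36 for Kcnj10, −0.016 to 0.856 for Rps18, −0.26 to 1.95 for Gja1, −0.24 to 1.96 for Foxj1, −3.27 to 4.47 for Folr1, −0.057 to 2.03 for Cdk1 and −0.345 to 0.845 for Alas2, lowest without ADM 2 in each. It ran from −0.454 to 0.093 for mt-Nd1, −3.15 to 0.951 for Cx3cr1, −2.43 to 0.646 for Trem2 and −0.926 to 1.05 for Apoe. The cause was not tested. Without robust estimation Kcnj10 and Pomc had an adjusted p of 0.0507 with the block. With 2 libraries a group, a gene that was not called may still have changed, and the power to detect small changes was not tested.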

Other observations

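The genes in this section were chosen after their values were seen, and their counts support nothing beyond the values. Some genes of MHC class I antigen presentation rose. H2-K1, a class I heavy chain, measured 7.34 and 15.8 CPM in the controls and 33.0 and 53.0 CPM with ADM (1.95 ± 0.17, adjusted p = 0.00643 in edgeR's test with the block). Tap1, the peptide transporter, measured 5.05 and 9.91 against 23.2 and 28.2 CPM, and Tapbp, tapasin, measured 13.4 and 18.1 against 45.1 and 44.3 CPM (1.83 and 1.52). H2-D1 and Erap1 rose by 1.21 and 1.51. Psmb8 and Psmb9, immunoproteasome subunits, and Tap2 were not called.

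Some genes known as death receptors or p53 targets also rose. Fas measured 0.902 and 4.80 against 14.6 and 24.95 CPM (3.03 ± 0.44, adjusted p = 0.0477), and Phlda3 measured 10.3 and 14.5 against 31.6 and 60.5 CPM (1.85 ± 0.17). Tnfrsf10b, Eda2r and Bbc3 rose by 2.07, 1.59 and 0.87. Cdkn1a, a cell cycle inhibitor, measured 49.9, 65.9, 93.4 and 321 CPM in control 1, control 2, ADM 1 and ADM 2 and was not called (adjusted p = 0.299), nor were Mdm2 and Trp53 (0.86 and 0.61).

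Of lipid genes outside the lists, 6 that fell are given. Pcyt2, for phosphatidylethanolamine, measured 62.7 and 59.0 against 31.1 and 33.3 CPM (−0.92 ± 0.13), and Idh1, which supplies NADPH, measured 451 and 432 against 263 and 237 CPM (−0.82 ± 0.10). Acsl3, Aacs, Bdh1 and Pcyt1b fell by 0.71, 0.64, 0.84 and 0.65 on the log2 scale. Both ADM libraries lay below both controls for each of the 6 genes.

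Cd44, a hyaluronan receptor, measured 7.22 and 12.6 against 108 and 108.5 CPM (3.49 ± 0.23), and Vim, vimentin, measured 108, 303, 489 and 1687 CPM in control 1, control 2, ADM 1 and ADM 2 (2.33 ± 0.12). Slc6a11, the GABA transporter of astrocytes, fell from 114 and 174 to 51.9 and 77.5 CPM (−1.15 ± 0.10).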
